A study of Mus musculus with 3 samples.

Results

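The genes described here serve protein folding, translocation, quality control and export in the endoplasmic reticulum (ER), together with the sensors and transcription factors of the unfolded protein response. They were taken by symbol from a list of 41 genes, and all 41 were found among the 19381 genes of the deposited table. Of these, 40 had a mean value of at least 10, the level below which genes were left out of counts. Ddit3 was left out, with a mean of 5.98, and the lowest gene kept was Sdf2l1, with a mean of 18.01. All 41 are annotated as protein-coding.

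RNA was sequenced from mesenchyme of the proximal incisor of mice with the genotype Gli1-CreER;Arid1afl/fl;Arid1bfl/fl, called DKO. They were given tamoxifen, 1.5 mg for every 10 g that a mouse weighed, and sampled after 4 days at an age of 1 month. The Gli1 promoter limits the recombinase to Gli1-expressing cells, and the labels name no sorting of cells, so cells without recombination may be included. The 3 libraries, replicates 1 to 3, form the only group analysed here, so no comparison between genotypes was made. The labels do not say whether they came from separate animals, and the SDs measure only the spread between libraries, which may be technical.

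Secreted and membrane proteins enter the ER through the Sec61 channel, fold with the help of chaperones and disulfide isomerases, and leave in COPII-coated vesicles. Escaped chaperones are returned from the Golgi by KDEL receptors, and proteins that fail to fold are sent back to the cytosol for degradation. When unfolded protein accumulates, the sensors encoded by Ern1 (IRE1), Eif2ak3 (PERK) and Atf6 slow translation and raise the transcription of chaperone genes. Odontoblasts and pulp fibroblasts carry a heavy load of this kind, because dentin and pulp matrix consist largely of secreted collagen and phosphoproteins. In humans, variants in several of these genes, among them FKBP10, PPIB, CREB3L1, P4HB and SEC24D, cause brittle bone disorders.

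Transcription of many ER chaperone genes runs through the ER stress element, which is bound by ATF6 with NF-Y and was searched here as CCAAT, then 9 bases of any kind, then CCACG, on both strands. RefSeq promoter windows (GRCm38.p6, 250 bases before to 50 bases after the start) were matched by symbol to 34 of the 41 genes. A match was found in 8 of these 34, against 0.119% of all 32851 promoter windows, or 0.137% of 27025 genes. The matching stretches are shown because 7 of the 8 genes shared the pattern over libraries that is described below. Each is written 5′ to 3′ on the strand of its gene with the match in capitals. The matches in Calr, Creld2 and the second one in Hsp90b1 lie on the opposite strand and therefore begin with CGTGG.
Hspa5, match only, chr2:34772025-34772043, plus strand: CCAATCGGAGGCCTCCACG
Hsp90b1, first match, chr10:86705623-86705671, minus strand: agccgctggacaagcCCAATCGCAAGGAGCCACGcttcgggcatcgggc
Hsp90b1, second match, chr10:86705518-86705566, minus strand: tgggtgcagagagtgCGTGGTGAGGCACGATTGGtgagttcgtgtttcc
Calr, chr8:84847060-84847108, minus strand: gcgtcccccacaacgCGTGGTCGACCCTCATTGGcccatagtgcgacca
Canx, chr11:50325785-50325833, minus strand: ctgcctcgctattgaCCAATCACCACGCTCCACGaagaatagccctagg
Dnajc3, chr14:118937812-118937860, plus strand: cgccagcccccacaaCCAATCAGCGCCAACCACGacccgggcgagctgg
Creld2, chr15:88819505-88819553, plus strand: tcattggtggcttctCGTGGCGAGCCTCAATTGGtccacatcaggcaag
Pdia6, chr12:17266476-17266524, plus strand: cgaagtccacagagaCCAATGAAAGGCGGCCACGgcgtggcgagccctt
Syvn1, chr19:6046517-6046565, plus strand: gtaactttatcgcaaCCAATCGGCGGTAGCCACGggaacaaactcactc

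The UPR element TGACGTGG, a motif associated with XBP1 and ATF6, matched in Sec24d, Kdelr3 and Sec23a, 3 of 34 genes, against 0.676% of all promoter windows. In Sec23a the match lay after the start. The stretch of Kdelr3 is shown because this gene was lowest in the library where the chaperones were highest, with the match in capitals.
Kdelr3, chr15:79516363-79516400, plus strand: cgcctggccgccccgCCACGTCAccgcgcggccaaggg
The match in Kdelr3 is on the opposite strand. The amino acid response element was searched as TGATGCAAT and as TTGCATCA. The first form matched in 0 of 34 genes and 0.192% of windows. The second matched in Herpud1 alone and in 0.895% of windows. The short end of the ER stress element, CCACG, which lies within every full match, was present in 26 of the 34 genes and in 32.8% of windows. A match describes these letters and shows no binding.

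Values are gene counts that the authors scaled so that each library has the same upper quartile, called normalized values below. Depth in reads is not known, so no counting interval is given. The 41 genes together made up 0.928%, 1.19% and 1.07% of the summed values of replicates 1, 2 and 3. Levels of different genes are compared only after division by the length of the gene's annotated exons in kilobases. On that scale 37 of 40 genes lay above the median of the 10272 genes with a mean of at least 10 and a known length, and 17 lay in the top 10%. Their median percentile was 86.5.

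**Figure D1:**
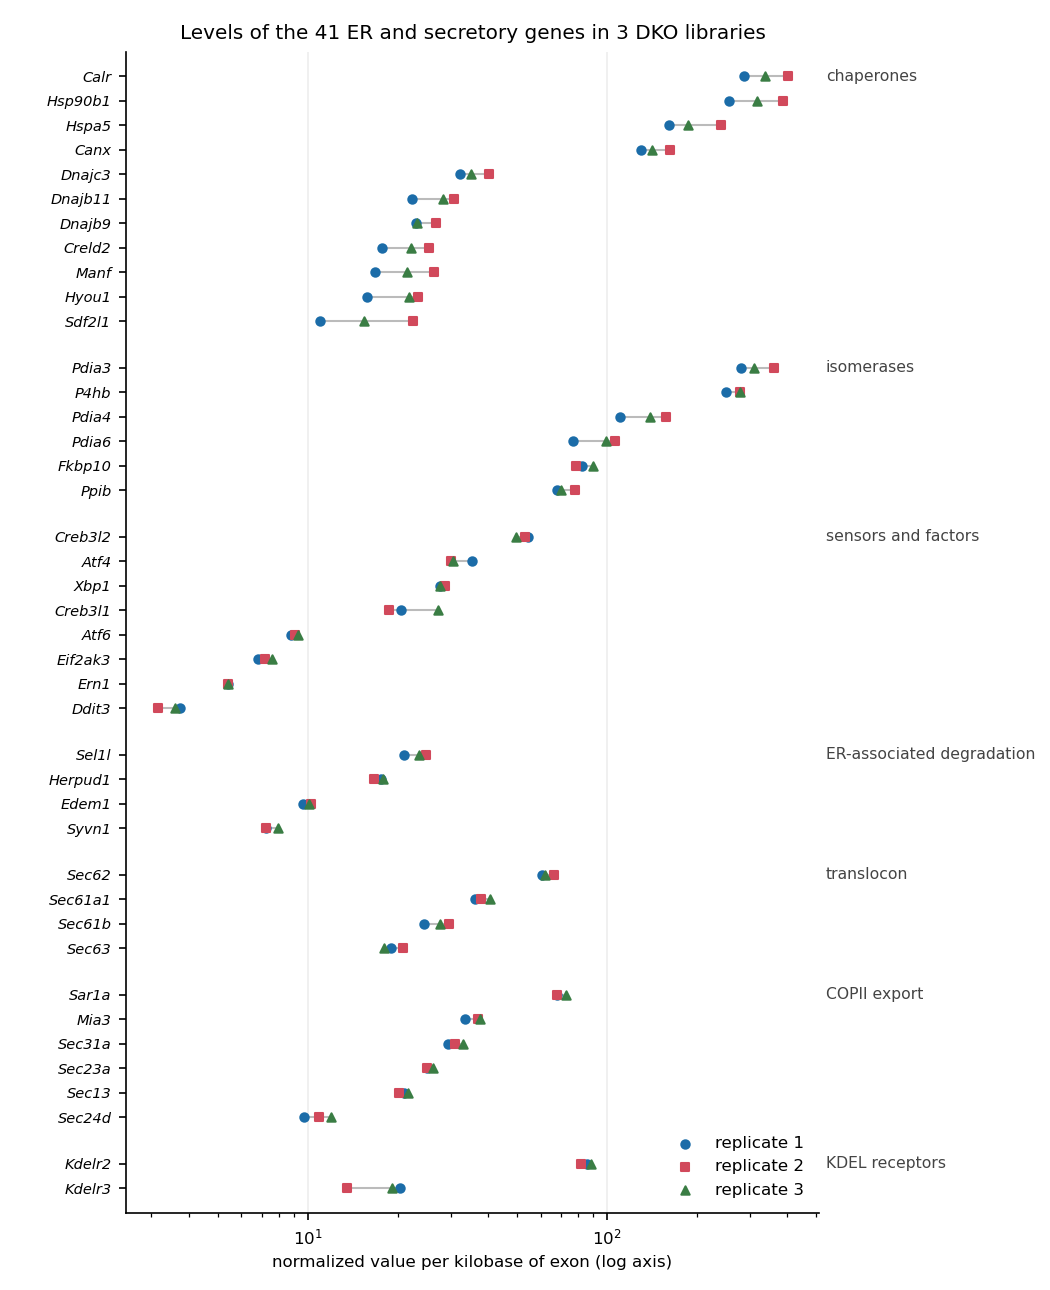
Normalized value per kilobase of exon (log axis) of each of the 41 genes in each library, grouped by role and ordered by mean within a role. Calr, Hsp90b1, Pdia3 and P4hb stood highest, and the sensors Atf6, Eif2ak3 and Ern1 stood below every chaperone and isomerase.

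The folding enzymes formed the upper end of the order of levels per kilobase. Calr, a calcium-binding lectin chaperone of glycoproteins, stood at 342 ± 57.0 per kilobase (SD, n = 3). Hsp90b1, the ER member of the HSP90 family (GRP94), stood at 320.3 ± 65.9, and Pdia3, the disulfide isomerase that works with calreticulin, at 318 ± 41.2. P4hb, a disulfide isomerase that is also the beta subunit of collagen prolyl hydroxylase, stood at 269 ± 17.0. The libraries of Calr, Hsp90b1 and Pdia3 overlapped, while every library of P4hb lay below every library of Pdia3, at 249 to 279 against 280.5 to 362. Next came Hspa5, the central ER chaperone BiP, at 196 ± 40.8, and the membrane-bound lectin chaperone Canx at 144 ± 16.4, with library ranges that met, at 161 to 240.4 and 130 to 162.

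The 6 disulfide and proline isomerases all lay above percentile 95, the lowest of them Ppib at percentile 95.8. The isomerases that act on collagen, Fkbp10 and Ppib, stood at 83.8 ± 5.73 and 72.1 ± 5.25 per kilobase. The length of the longest coding transcript in place of all exons places Ppib at 267 per kilobase, because its annotated exons span 3305 bases and that transcript 892. Levels per kilobase therefore depend on the isoform assumed, for Ppib more than for the other members.

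The chaperones varied together from library to library. All 11 chaperones and cochaperones were highest in replicate 2, intermediate in replicate 3 and lowest in replicate 1. Among all 10388 genes with a mean of at least 10, 17.5% showed that order, 34.2% were highest in replicate 2 and 38.1% lowest in replicate 1. Among the 40 genes, 19 showed that order, so 8 were not chaperones. These genes share regulators, so they are not 11 independent observations. Single libraries were not tested against each other, since none has a replicate.

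Hspa5 (chromosome 2, 34771970 to 34777548, mm10) stood at normalized values of 679, 1017 and 787 in replicates 1, 2 and 3. Hsp90b1 (chromosome 10, 86690209 to 86705510) stood at 1031, 1562 and 1281. Calr (chromosome 8, 84841850 to 84846935) stood at 828, 1156 and 972. For each of these abundant chaperones replicate 2 was the high library, with values 1.39-, 1.35- and 1.28-fold those of the mean of the other libraries for Hspa5, Hsp90b1 and Calr. Canx stood at 608, 760.2 and 666, a smaller difference of 1.19-fold in the same order.

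The cochaperones that serve BiP showed the same order at lower levels. Sdf2l1 (chromosome 16, 17130138 to 17132384), a small ER-stress-inducible partner of the DNAJB proteins, stood at 12.1, 24.9 and 17.0. Its replicate 2 stood at 1.66-fold the mean of the others, the widest difference among the 40 genes. Manf, a secreted ER stress protein that binds BiP, stood at 59.1, 92.8 and 75.7 with replicate 2 at 1.37-fold the mean of the others.

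Hyou1, the nucleotide exchange factor of BiP, stood at 114, 169 and 157, with replicate 1 at 0.70 times the mean of the others. Creld2, an ER stress-inducible isomerase-like protein, stood at 24.1, 34.8 and 30.3. Dnajb11, which delivers unfolded clients to BiP, stood at 72.1, 99.9 and 91.6. The 3 genes shared a low replicate 1, whereas Dnajc3 (166, 208 and 181) and Dnajb9 (58.8, 68.3 and 59.2) had replicate 3 nearer to replicate 1 than to replicate 2. Over the 11 genes, replicate 2 exceeded replicate 1 by 1.16- to 1.97-fold, with a median of 1.42-fold, and exceeded replicate 3 by 1.08- to 1.43-fold.

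**Figure D2:**
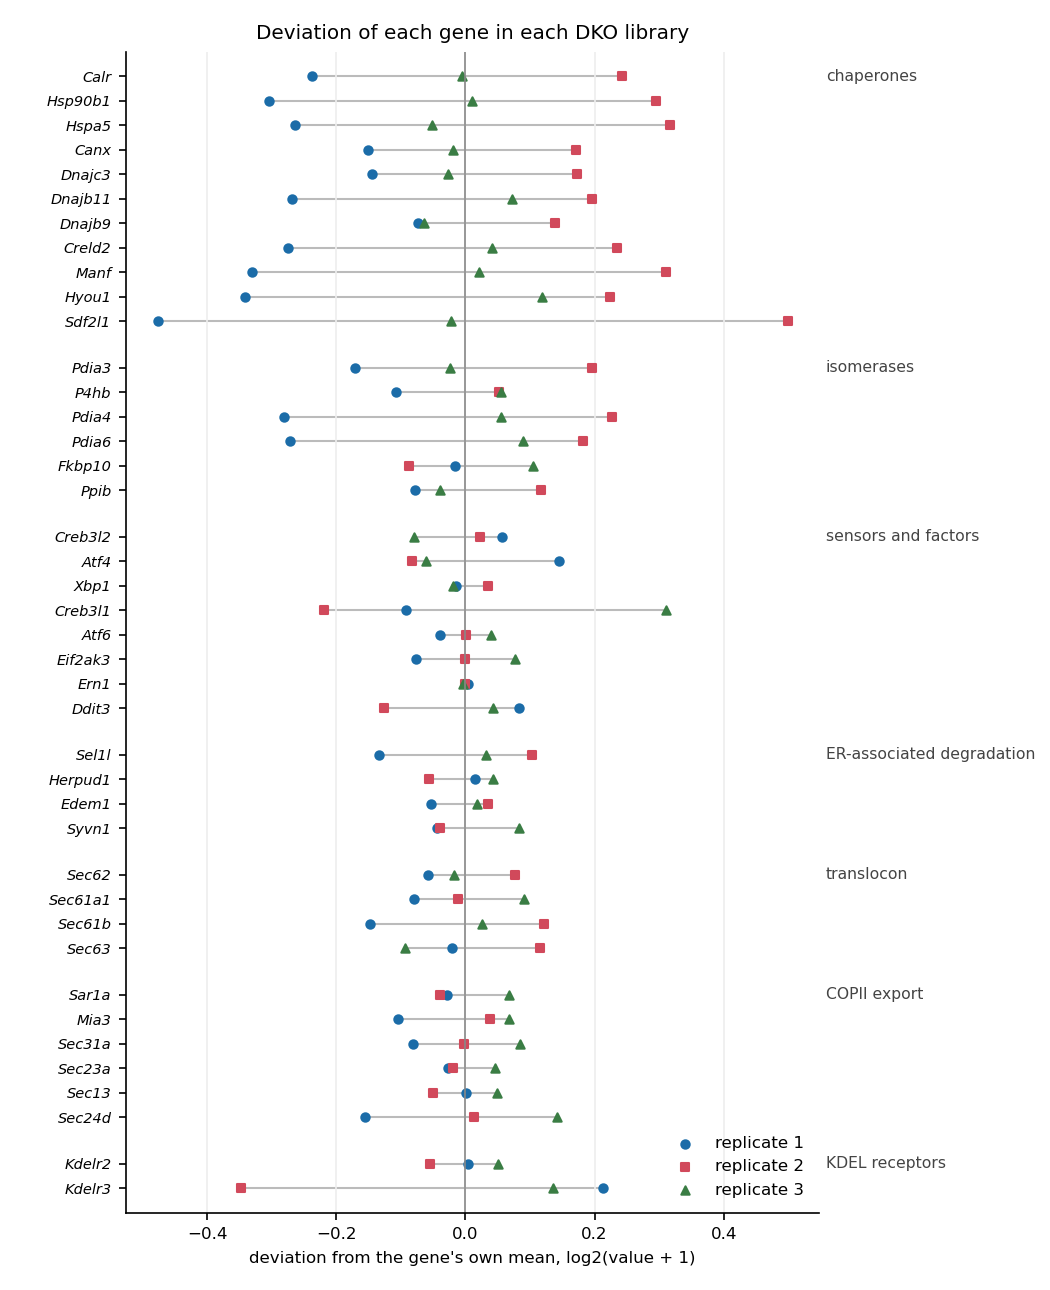
Deviation of log2(value + 1) from the gene's own mean over the 3 libraries, for each of the 41 genes by role. All 11 chaperones run from replicate 1 (low) through replicate 3 to replicate 2 (high). The sensors Atf6, Eif2ak3 and Ern1 stay closer to 0, and the COPII genes have replicate 3 highest. Atf4, a transcription factor, has replicate 1 highest.

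Cell type markers and other library features also differed between the libraries, not all in the order of the chaperones. Summed values of 7 dental epithelium genes were 759, 1226 and 941 in replicates 1, 2 and 3, the order of the chaperones. Of the 7, 6 were highest in replicate 2, whereas Enam (140, 241 and 246) was highest in replicate 3. Summed values of 6 odontoblast genes, Col1a1 among them, were 15845, 6163 and 18127, with 5 of 6 lowest in replicate 2. The 6 macrophage genes, Mrc1 among them, were all lowest in replicate 1 (sums of 810.3, 1096 and 1143), as were 4 of 5 endothelial genes, Cdh5 among them (294, 312 and 416). All 5 endothelial genes and 4 of the 6 macrophage genes were highest in replicate 3.

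Interferon-stimulated genes were highest in replicate 1 for all 9 with a mean of at least 10. The ribosomal RNA gene, CT010467.1, took 7.27% of replicate 1, 4.98% of replicate 2 and 4.66% of replicate 3. The 8 genes of dental mesenchyme, Tnc among them, were expressed throughout, with sums from 5251 to 5682. Plasma cells, which are rich in these chaperones, had 1 of 5 markers at a mean of at least 10, namely Sdc1, which epithelium also expresses (413). The defining markers Jchain and Igkc had means of 2.73 and 2.54. Neutrophil genes, among them S100a9, summed to 1.08, 6.81 and 3.28 in replicates 1, 2 and 3. Skeletal muscle genes, among them Acta1, summed to 1.31, 6.29 and 3.50. Both sums had the order of the chaperones, at very low values. Bone cell genes summed to 497, 175 and 578. Most of the bone cell sum came from Bglap (363, 104 and 394), which is also counted among the odontoblast genes. Of the other bone cell genes, Ibsp stood at 15.6, 27.3 and 30.9, lowest in replicate 1, and Sost had a mean of 0.15. The part of these features in the differences between libraries was not tested. In bulk tissue, fewer cells of a type and less RNA per cell cannot be told apart.

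Of the 6 isomerases, 4 followed the chaperones. Pdia4 stood at 265, 377 and 335, and Pdia6 at 289, 397 and 372. Pdia3 stood at 880.5, 1136 and 975 and Ppib, a proline isomerase of the collagen prolyl 3-hydroxylation complex, at 225, 258 and 231. P4hb was level in replicates 2 and 3, at 713, 796 and 798. Fkbp10, a chaperone of type I procollagen, was lowest in replicate 2, at 243, 231 and 264. Only P4hb and Fkbp10 of the 6 were not highest in replicate 2.

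The sensors and transcription factors mostly varied little. Coefficients of variation lay above the median of all genes, 7.20%, for Creb3l1 (20.2%), Atf4 (9.02%) and Ddit3 (8.78%). Ern1 (chromosome 11, 106394650 to 106487853), the kinase and RNase that splices Xbp1 mRNA, stood at 44.3, 44.15 and 44.05. Atf6, the membrane-tethered factor that binds the ER stress element, stood at 81.1, 83.4 and 85.7, and Eif2ak3, the kinase that phosphorylates eIF2 alpha, at 41.1, 43.4 and 45.8. Xbp1 (chromosome 11, 5520659 to 5525894) stood at 90.1, 93.3 and 89.8, with a coefficient of variation of 2.14%. These are gene-level values, in which spliced and unspliced Xbp1 cannot be told apart, and activation of the 3 sensors, which occurs at the protein level, is not measured. The median deviations of the 7 sensors and factors with a mean of at least 10 were -0.015, -0.00064 and -0.0038 in replicates 1, 2 and 3 on the log2 scale, against -0.27, 0.23 and -0.01 for the chaperones.

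Creb3l1 (chromosome 2, 91982328 to 92024503), the OASIS factor that activates Col1a1 transcription in osteoblasts, stood at 53.3, 48.7 and 70.8, with replicate 3 at 1.38-fold the mean of the others. Creb3l2, its relative and an activator of Sec23a in cartilage, stood at 397, 387 and 361. Atf4, the factor translated when eIF2 alpha is phosphorylated, stood at 83.3, 71.0 and 72.0 and was highest in replicate 1. Ddit3, the pro-apoptotic factor CHOP, stood at 6.38, 5.38 and 6.17 and was the lowest of the 41 genes per kilobase (3.49 ± 0.306). None of the 8 followed the order of the chaperones. Among the 7 with a mean of at least 10, the count of 0 stood against 17.5% of all genes. For so few genes that is not far from the share. Ern1 and Xbp1 differed so little between libraries that their order depends on the scaling.

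Targets of the integrated stress response, in which PERK and ATF4 take part, lay near the middle of all genes in level, with a median percentile of 56.0 per kilobase. Their levels do not measure PERK activity. Of 17 such genes found, 13 had a mean of at least 10, and that percentile covers those 13 only. By value not divided by length, which sets no order of levels, the rule named Ddit4, an inhibitor of mTORC1 signalling (157, 129 and 136), Slc3a2, an amino acid transporter chain (76.7, 75.8 and 96.1), and Asns, asparagine synthetase (58.2, 64.7 and 64.4). Chac1, Trib3 and Atf3, which are strongly induced in this response, had means of 0.95, 0.69 and 1.10. They lie outside the rule for named genes and were chosen after their values were seen. An SD of log2(value + 1) above 0.25 was found for 2 of the 13, against 9.15% of all genes. Slc7a11 (12.2, 30.8 and 15.4) had the order of the chaperones, with replicate 2 at 2.14-fold the mean of the others. Phgdh (27.3, 28.7 and 47.3) was highest in replicate 3. The median deviations of the list were -0.08, 0.01 and 0.05.

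None of the 4 genes of ER-associated degradation had an SD of log2(value + 1) above 0.25. Sel1l, the scaffold of the HRD1 ubiquitin ligase, stood at 179.9, 212 and 202. Syvn1, the ligase HRD1 itself, stood at 35.2, 35.3 and 38.5 and was not highest in replicate 2 although its promoter window holds an ER stress element. Herpud1, a stress-inducible partner of the ligase, stood at 40.9, 38.8 and 41.6 and Edem1, a mannosidase-like protein that extracts misfolded glycoproteins, at 62.0, 66.0 and 65.2. Coefficients of variation were between 3.29% and 8.32%, and only that of Sel1l lay above the median of 7.20% over all genes. Of 13 further genes of this pathway with a mean of at least 10, 0 had an SD of log2 above 0.25, against 9.15% of all genes. Among them were Vcp, the ATPase that pulls substrates out of the membrane (500.2 ± 17.4), and Edem3 (111 ± 6.78).

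Of the 4 translocon genes, 3 were highest in replicate 2, against 34.2% of all genes, by smaller folds than most chaperones. Sec62 and Sec63, which open the channel for post-translational substrates and recruit BiP, stood at 262, 288 and 270.0 and at 166, 183 and 158. Sec61b, a small channel subunit, stood at 30.98, 37.6 and 35.1. Sec61a1, the pore-forming subunit, was highest in replicate 3, at 244, 255 and 274. Among 23 further genes for translocation, signal peptide cleavage and N-glycosylation with a mean of at least 10, the rule named Ssr3 (495 ± 30.5), Ssr1 (432 ± 11.2) and Stt3a (269 ± 21.8). Of the 23, 9 were highest in replicate 2, against 34.2% of all genes, and 11 in replicate 3, against 34.6%. Neither count is far from its share.

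The 6 COPII genes were all highest in replicate 3, against 34.6% of all genes, and the differences were small. Sar1a, the GTPase that starts coat assembly, stood at 255, 254 and 273. Sec23a, an inner coat subunit, stood at 121, 122 and 127, and Sec24d, a cargo-binding inner coat subunit, at 61.2, 69.0 and 75.5. The outer coat subunits Sec31a and Sec13 stood at 232, 245 and 260.3 and at 66.7, 64.4 and 69.0.

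Mia3 (TANGO1), the ER exit site receptor that loads bulky cargo such as procollagen, stood at 148, 164 and 167. Replicate 3 exceeded the mean of the others by 1.05- to 1.16-fold over the 6 genes. Of 18 further COPII and retrieval genes with a mean of at least 10, 11 were highest in replicate 3, against 34.6% of all genes. Those named by the same rule were the cargo receptors Tmed10 (327 ± 7.14), Lman1 (307 ± 30.7) and Tmed2 (298 ± 8.51).

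The KDEL receptors did not follow the chaperones they retrieve. Kdelr2 stood at 156, 149.97 and 161. Kdelr3 (chromosome 15, 79516411 to 79527740) stood at 28.6, 19.1 and 27.0, and was 0.70 times the mean of the others in replicate 2, where the chaperones were highest. Kdelr1, not among the 41 genes, stood at 146, 154 and 157.

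An SD of log2(value + 1) above 0.25 over the libraries was found for 9 of 40 genes, against the same 9.15% of all 10388 genes. The 9 were Sdf2l1, Manf, Kdelr3, Hsp90b1, Hyou1, Hspa5, Creb3l1, Pdia4 and Creld2, so 6 of them were chaperones or cochaperones. Creld2 and Pdia4, at 0.26 each, lay just above this threshold, and Calr and Dnajb11, at 0.24 each, just below it. The count was 4 without replicate 1, against 6.63% of all genes, 4 without replicate 2, against 11.7%, and 12 without replicate 3, against 9.98%. Without replicate 1 or replicate 2 the members' count was thus near or below the share of all genes. The median SD of log2 was 0.11 for the 40 genes and 0.10 for all genes, and it was 0.26 for the chaperones.

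Replicate 2 was the highest library for 21 of 40 genes, against 34.2% of all genes, replicate 3 for 15, against 34.6%, and replicate 1 for 4, against 31.2%. Replicate 1 was the lowest for 28, against 38.1%, replicate 2 for 8, against 27.8%, and replicate 3 for 4, against 34.2%. More than the share of all genes thus ended high in replicate 2 and low in replicate 1, and 11 of each came from the chaperones.

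Folds of (value + 1) were also counted where a library lay at least 25% above the mean of the others, or at most 0.8 times that mean. Replicate 2 lay at least 25% above for 7 of 40 genes, against 2.58% of all genes, and at or under 0.8 times for Creb3l1 and Kdelr3, 2 genes, against 4.2%. The 7 were Sdf2l1, Hspa5, Manf, Hsp90b1, Calr, Creld2 and Pdia4, with Pdia4 (1.26-fold) just inside the threshold and Hyou1 (1.246-fold) just outside. Replicate 1 lay at or under 0.8 times for 10 genes, against 5.52%, and above for 0, against 5.06%. These 10 were 8 chaperones or cochaperones together with Pdia4 and Pdia6. Replicate 3 lay above for 1 gene, Creb3l1, against 3.96%, and below for 0, against 4.69%.

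With the other libraries taken singly, 2 of 40 genes in replicate 2 lay at least 25% above replicate 3, against 4.29% of all genes, and 12 above replicate 1, against 5.69%. In replicate 3, 7 genes lay at least 25% above replicate 1, against 7.33%, and 2 above replicate 2, against 4.18%. Both counts of 2 are near the share of all genes. At a fold of 1.5 Sdf2l1 alone remained, above in replicate 2, against 0.327% of all genes, and below in replicate 1, against 1.22%. The other directions held 0 of 40 genes at that fold, against 1.7% above in replicate 1, 1.52% below in replicate 2, and 0.693% above and 1.2% below in replicate 3.

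**Figure D3:**
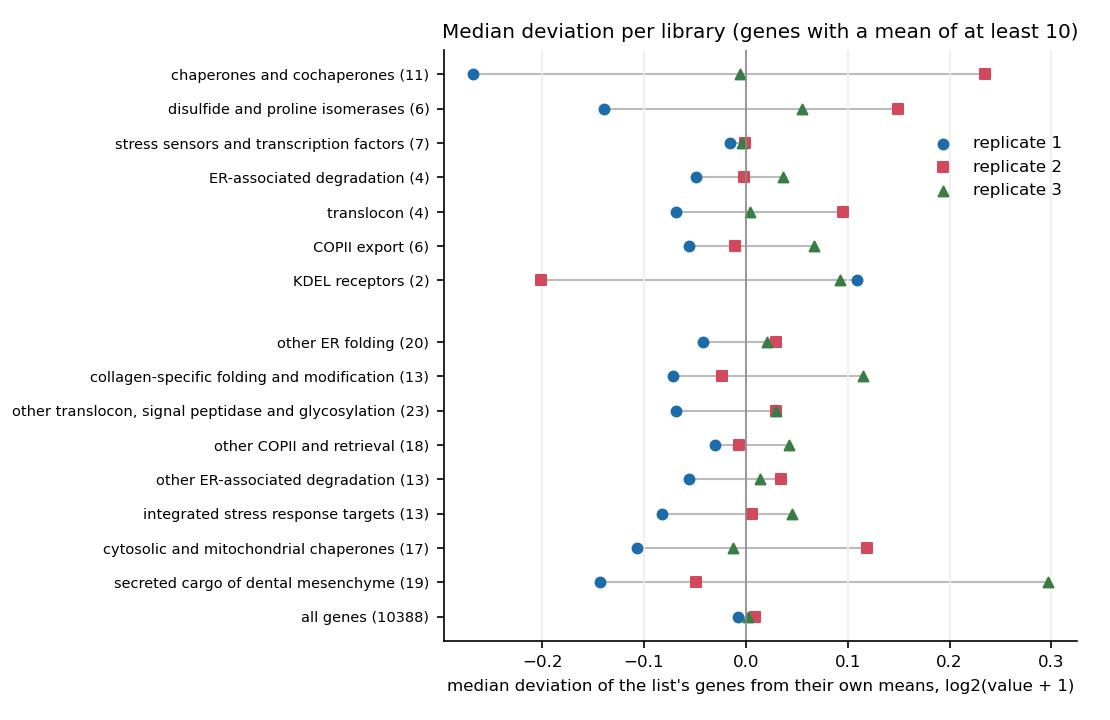
Median over each list of the deviation of log2(value + 1) from the gene's own mean, per library, for the 7 roles (upper rows) and for related lists and all genes (lower rows). The number of genes with a mean of at least 10 is in parentheses. Chaperones have replicate 2 highest at 0.23 and replicate 1 lowest at -0.27, whereas secreted cargo and collagen-modifying genes have replicate 3 highest.

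The proteins that this machinery exports differed in another way. Of 19 secreted matrix genes with a mean of at least 10, 16 were highest in replicate 3, against 34.6% of all genes. Replicate 2 was highest for 1, against 34.2%. Replicate 1 was lowest for 11 of the 19, as it was for the chaperones, against 38.1% of all genes. Replicate 2 was lowest for 8, against 27.8%. Col1a1, the main chain of type I collagen, stood at 9950, 4719 and 13715 in replicates 1, 2 and 3. Dspp, the main non-collagen protein of dentin, stood at 4959, 1072 and 3489. Both were lowest in replicate 2, where the chaperones were highest. Col1a2 (2809, 3890 and 5371) was lowest in replicate 1.

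The 41 genes summed to 27.9%, 39.6% and 23.2% of the summed value of 20 cargo genes in replicates 1, 2 and 3. Without Col1a1 and Dspp among the cargo the shares were 51.0%, 49.6% and 37.7%, so replicate 2 was then no longer highest. The high share of replicate 2 thus rests on those 2 cargo genes. With or without them replicate 3 had the lowest share.

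Collagen-specific folding and modifying genes were mostly highest in the library where cargo was highest. Of 13 with a mean of at least 10, 10 were highest in replicate 3, against 34.6% of all genes. Replicate 2 was highest for 2, against 34.2%. Serpinh1, the collagen chaperone HSP47, stood at 1206, 1565 and 1688. The rule also named Plod2, a lysyl hydroxylase of collagen telopeptides (229 ± 12.04), and P3h1, a collagen prolyl 3-hydroxylase (136 ± 16.2). Of 20 other general ER folding genes, 12 were highest in replicate 2, against 34.2% of all genes, and 7 in replicate 3, against 34.6%. Fkbp14, highest in replicate 2, was counted both here and among the collagen-specific genes. The order of the chaperones was shown by 9 of these 20, against 17.5% of all genes. Those named by the rule were the calcium-binding protein Calu at 753 ± 34.1, Fkbp9 at 376 ± 32.3 and Rcn1 at 335 ± 9.10.

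The genes with an ER stress element were set against the others by their fold in replicate 2. The 8 genes with a match had a median of 1.23-fold, from 0.96 for Syvn1 to 1.39 for Hspa5, and 7 of the 8 were highest in replicate 2. The 25 genes without a match and with a mean of at least 10 had a median of 1.04-fold, from 0.70 for Kdelr3 to 1.66 for Sdf2l1, and 12 were highest in replicate 2. Outside the 41 genes, 6 genes with a match had a mean of at least 10. Their median was 1.00-fold, from 0.82 for Acacb to 1.14 for Zfp57, and 1 of the 6 was highest in replicate 2. Of the 8 genes with a match 6 are chaperones, and every chaperone was highest in replicate 2 with or without one. The chaperones with a window but no match, Sdf2l1, Dnajb11 and Dnajb9, stood at 1.66-, 1.22- and 1.15-fold, so the split by motif is also a split by role. The motif was chosen for its known link to chaperone genes, and the split is a description.

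**Figure D4:**
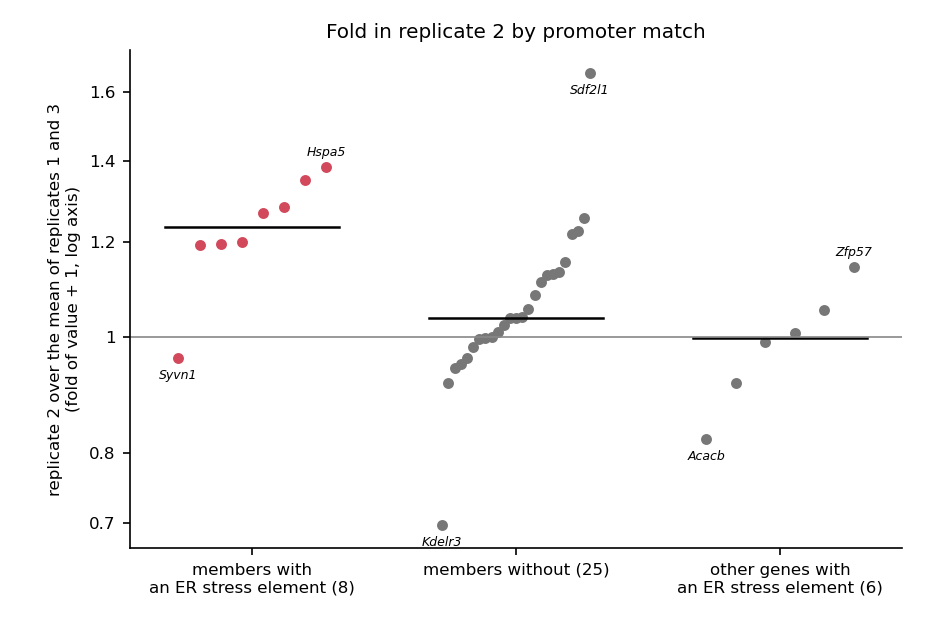
Fold of (value + 1) in replicate 2 over the mean of replicates 1 and 3 (log axis) for members of the 41 genes with and without an exact ER stress element in the promoter window, and for other genes with one. Points are genes, bars are medians (1.23, 1.04 and 1.00), and the numbers of genes are in parentheses.

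Several of these genes have a relative with the same role, and their ratio within a library shows which form the tissue expressed more, per kilobase. For 16 pairs the log2 ratio of (value per kilobase + 1) was taken in each library, and its sign was tested over the libraries by flipping signs in every combination (exact permutation test, two-sided). In 14 pairs the ratio had the same sign in 3 of 3 libraries, with an exact permutation p = 0.25, the smallest that 3 libraries allow (Benjamini-Hochberg adjusted p = 0.286 over 16 pairs), so no pair could pass 0.05. Sec23a exceeded Sec23b by 1.51 ± 0.03 and Sar1a exceeded Sar1b by 1.48 ± 0.06 on the log2 scale. Sec61a1 exceeded Sec61a2 by 1.99 ± 0.17, and Mia3 exceeded Mia2, which pairs with it at exit sites, by 2.10 ± 0.11, where the length of Mia3 rests on incompletely annotated transcripts. Sec31a stood at 31.2 ± 1.81 per kilobase, against 0.203 ± 0.144 for Sec31b.

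Sec24d was not the leading form of its family. It exceeded Sec24a by 1.18 ± 0.17 and lay below Sec24c by a log2 ratio of -0.88 ± 0.12. Against Sec24b the ratio was -0.24 ± 0.12, but 0.19 with the length of the longest coding transcript, so its direction is not settled. Kdelr2 over Kdelr1 gave 0.06 ± 0.07, from -0.01 to 0.13 over the libraries (exact permutation p = 0.5), and -0.16 with the other length. Kdelr3 lay below Kdelr1 by -2.16 ± 0.32.

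Creb3l2 exceeded Creb3l1 by 1.22 ± 0.33, and the ratio was smallest in replicate 3, at 0.84, where Creb3l1 was highest. Atf6 lay below Atf6b by -0.71 ± 0.12 per kilobase but above it by 0.95 as deposited, since its annotated exons are far longer. Edem1 lay above Edem2 (0.45 ± 0.06) and below Edem3 (-0.74 ± 0.05). Sdf2l1 lay below Sdf2 by -1.33, -0.36 and -0.87 in replicates 1, 2 and 3, a spread that came from Sdf2l1, because Sdf2 stood at 44.01, 43.95 and 43.72. Dnajb11 over Dnajb9 gave 0.14 ± 0.17, from -0.05 to 0.27 (exact permutation p = 0.5).

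**Figure D5:**
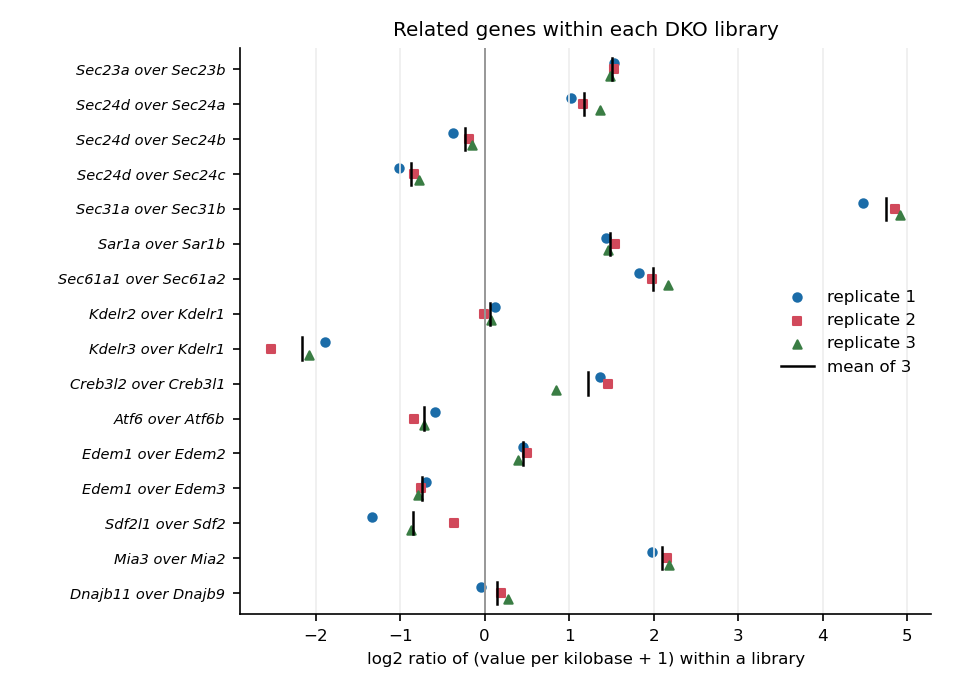
Log2 ratio of (value per kilobase + 1) between related genes in each DKO library, with the mean of 3 as a bar. Sec23a, Sar1a, Sec61a1 and Mia3 lay above their relatives in every library and Kdelr3 lay below Kdelr1 in every library.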

How the data were processed

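Bulk RNA-seq of 3 DKO libraries was used. The submitters' processing notes name TopHat2 2.0.8 and mm10. The counter, the annotation and the strand setting are not given in these sources. The deposited signal is gene counts that the authors normalized: its 75th percentile was 44.7 in each library, totals were 958773 to 986401, and no value was 0. Values up to 20 times the smallest fell within 0.1 of whole multiples for 82.4% to 82.6%, below the 95% needed to recover reads, so no count model was run and depth is unknown. Columns were assigned through the library number in their names.

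Exon length is the union of exons in GENCODE M21 (GRCm38, the mm10 assembly). Logarithms are log2(value + 1), and folds are of (value + 1), which understates differences between low values. Python 3.11.15, numpy 2.4.6 and pandas 2.3.3 were used, and the calculations were tested on simulated data. Protein motifs were not analysed here.

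The members, lists and motifs were chosen with earlier results of these data known. Genes named by rule were the members, their paired relatives, the 3 genes of each related list and the 1 of each marker list with the highest mean before division by length; others were chosen after their values were seen. Not every gene under this rule is reported here. Alternatives changed the pseudocount, the filter, the scaling, the length and the libraries used.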

Additional observations from a re-analysis of the deposited data

How the results depend on the processing

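No paired analysis was possible because the labels give 1 group. The chaperone pattern kept its direction under all scalings tried, with all 11 highest in replicate 2 and 10 or 11 lowest in replicate 1. The shares of all genes moved with the scaling. With equal totals, 40.9% were highest in replicate 2 and 46.4% lowest in replicate 1. With scaling by the median ratio between libraries, these shares were 30.8% and 34.9%. A library is called high for a gene at 25% or more above the mean of the others and low at 0.8 times it or less. Limiting genes to a mean of at least 100 left 22 of the 41 genes, and counts fell with the number tested. Shares of all genes past that limit are in parentheses. Of the 22, 4 had an SD above 0.25 (6.79%). Of 6 chaperones, 6 were highest in replicate 2 and 6 lowest in replicate 1. Replicate 1 was highest for 1 of the 22 (23.8%), lowest for 17 (46.6%) and low for 6 (5.65%). Replicate 2 was highest for 13 (40.1%), lowest for 3 (19.8%), high for 4 (1.28%) and low for 0 (2.28%). Replicate 3 was highest for 8 (36.1%), lowest for 2 (33.6%) and high for 0 (3.61%). With libraries scaled to equal totals 2 genes were highest in replicate 1, against 23.6% of all genes. On that scale 2 were lowest in replicate 3, against 31.5%, and 1 was low in replicate 2, against 3.62%. With a pseudocount of 10, 1 was low in replicate 2, against 2.52%.

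With a library left out, the genes with an SD above 0.25 numbered 4 to 12, and the 4 without replicate 2 lay below the 11.7% of all genes. Those high numbered 0 to 1 in replicate 1, 2 to 12 in replicate 2 and 2 to 7 in replicate 3, and those low numbered 7 to 12 in replicate 1, 1 to 2 in replicate 2 and 0 to 2 in replicate 3. For those high in replicates 2 and 3 the shares of all genes are given above. The other ranges have no share beside them, so nothing is concluded from them. The median percentile of level was 92.5 unfiltered, 80.8 for means from 100 up, 88.2 as deposited and 88.4 with the longest coding transcript. The sum of the genes over cargo was 39.97%, 47.4% and 33.5% in replicates 1, 2 and 3 without Col1a1, and 51.0%, 49.6% and 37.7% without Col1a1 and Dspp; these changes and the coding length were chosen after seeing the data. Ratios reversed for Atf6 over Atf6b as deposited (0.95) and, with the coding length, for Sec24d over Sec24b (0.19) and Kdelr2 over Kdelr1 (-0.16). The mean levels of all 41 genes moved by less than their SD under the 3 scalings. Factors from 0.984 to 1.012 can hardly move a mean over libraries, so nothing is concluded from this. The cause of the shifts was not tested except where fewer genes or another length entered by construction.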

Other observations

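Chaperones outside the ER were also mostly highest in replicate 2. Of 17 cytosolic and mitochondrial chaperone genes, 14 were highest there, against 34.2% of all genes, and 14 lowest in replicate 1, against 38.1%. The order of the ER chaperones was shown by 12, against 17.5% of all genes. Hsp90ab1, a constitutive cytosolic HSP90, stood at 1507, 1827 and 1590 in replicates 1, 2 and 3, Hspa8, the constitutive HSC70, at 1348, 1611 and 1433, and Hsp90aa1 at 559, 751 and 600.3. Heat-inducible genes, chosen after their values were seen, went both ways. Hsph1 (63.2, 106 and 88.7) and Hspb1 (17.4, 26.1 and 19.6) showed the order of the ER chaperones. Hspa1a (18.1, 13.6 and 19.3) and Hspa1b (32.1, 32.5 and 48.7), near-identical copies that may share reads, did not. The median deviations of the list were -0.11, 0.12 and -0.01, against -0.27, 0.23 and -0.01 for the ER chaperones. Whether these share a source with the ER genes was not tested.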
